A study of Mus musculus with 10 samples.

Results

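The 36 genes described here build, fold and inspect proteins inside the endoplasmic reticulum (ER), or sense and answer a build-up of unfolded protein there. They were taken as a list of gene symbols, and all 36 were among the 27716 genes that every matrix used here lists. By role they fell into 11 ER chaperones, 6 genes of oxidative folding and isomerization, 4 genes of entry into the ER, 6 genes of ER-associated degradation, and 9 stress sensors and transcription factors. Their transcripts were counted in single cells of the embryonic mouse pancreas and compared between acinar cells and beta, alpha, Fev+ and fibroblast cells, and between embryonic stages.

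The data came from 8 libraries of the 10x Chromium droplet method. Wild-type Swiss Webster embryos gave 4 libraries with the version 1 (v1) kit, 1 each for E12.5 (E for embryonic day) and E17.5 and 2 batches for E14.5, and 3 with the version 2 (v2) kit, 1 per stage. The v2 E17.5 library was loaded in 2 wells of one suspension, which were summed. The last library came from E14.5 embryos of the strain Fev-Cre;ROSA26mTmG, in which Cre driven by *Fev* switches a ubiquitous membrane reporter from tdTomato to GFP, and it was made with the v2 kit. No drug or deletion was applied in any group. Pancreata were pooled before loading, so a library is 1 independent sample, and single embryos could not be told apart. The v1 libraries held all live cells, the v2 Swiss Webster libraries only live cells negative for CD140a, a surface protein of mesenchyme, and the Fev-Cre library live cells carrying either reporter. Dissociation was longest for E17.5 tissue (30 minutes), shorter for E14.5 (15) and shortest for E12.5 (10).

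Secretory cells thread nascent proteins into the ER through the Sec61 channel, where chaperones and disulphide isomerases fold them and a retrotranslocation machinery hands misfolded molecules to the proteasome. The membrane sensors IRE1α (*Ern1*), PERK (*Eif2ak3*) and ATF6, answer an overload through the transcription factors XBP1, ATF4 and ATF6 itself, which raise many of the genes listed here, and through CHOP (*Ddit3*), which is linked to cell death. Acinar cells export digestive enzymes in bulk, beta cells insulin, alpha cells glucagon and fibroblasts collagen, whereas Fev+ cells are endocrine precursors that do not yet make much hormone.

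Some of these genes share a promoter element to which the ER stress factors bind, and it is shown here to describe members by sequence rather than by counts. The ER stress response element (ERSE, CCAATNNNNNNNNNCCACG) and its shorter relative (ERSE-II, ATTGGNCCACG) were searched on both strands in RefSeq promoters of the build GRCm38.p6, from 250 bases before to 50 after the start of each gene. Promoters were found for 31 of the 36 genes, with no entry for *Manf*, *Hyou1*, *Atf6*, *Derl1* and *Sec61a1*. The ERSE was in 9 of these 31 (29.0%) and in 39 of all 32851 promoters (0.119%), and ERSE-II was in 2 (6.45%) and in 12 of all (0.0365%). The other 20 of the 31 held neither. The members were listed for their part in the ER and its stress response, so their higher shares are no independent result. The letters CCACG, which both elements contain, were in 23 of the 31 (74.2%) and in 32.8% of all promoters. Capitals in the following lines mark the element, which is written in the direction in which the letters above read, 5′ to 3′, with its flanks.
Hspa5, 65 bases before the start: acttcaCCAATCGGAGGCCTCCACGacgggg
Hsp90b1, 107 bases before: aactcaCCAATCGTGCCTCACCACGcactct
Calr, 162 bases before: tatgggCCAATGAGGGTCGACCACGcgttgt
Canx, 145 bases before: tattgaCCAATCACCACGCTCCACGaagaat
Pdia6, 98 bases before: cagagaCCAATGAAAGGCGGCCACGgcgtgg
Dnajc3, 105 bases before: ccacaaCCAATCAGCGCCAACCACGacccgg
Creld2, 126 bases before: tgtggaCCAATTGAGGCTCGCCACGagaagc
Syvn1, 44 bases before: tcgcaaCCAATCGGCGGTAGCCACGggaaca
Derl3, 156 bases before: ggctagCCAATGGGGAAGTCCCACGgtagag
Herpud1, ERSE-II, 52 bases before: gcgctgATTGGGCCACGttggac
Dnajb11, ERSE-II, 8 bases after the start: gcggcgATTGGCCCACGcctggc

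*Hsp90b1* holds a second ERSE, 212 bases before its start. The 250 bases before the start of *Hspa5*, the classical target of the response, and of *Derl3*, the member with the largest rise over stages in acinar cells, are given as examples of the context, on the plus strand of GRCm38.p6, which is the gene strand of both. The element of *Derl3* reads on the other strand. A match of letters is a description and does not show that a factor binds there.
Hspa5, chr2:34771840-34772089: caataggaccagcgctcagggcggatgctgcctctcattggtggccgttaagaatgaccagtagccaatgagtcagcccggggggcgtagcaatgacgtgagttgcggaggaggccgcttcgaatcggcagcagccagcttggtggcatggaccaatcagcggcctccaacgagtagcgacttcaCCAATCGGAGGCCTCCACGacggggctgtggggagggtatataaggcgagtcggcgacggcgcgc
Derl3, chr10:75893148-75893397: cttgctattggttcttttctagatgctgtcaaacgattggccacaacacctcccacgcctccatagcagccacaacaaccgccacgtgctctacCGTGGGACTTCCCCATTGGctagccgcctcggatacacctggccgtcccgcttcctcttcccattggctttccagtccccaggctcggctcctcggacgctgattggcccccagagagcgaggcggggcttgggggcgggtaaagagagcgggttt

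Cells were clustered within each library (the 2 wells of v2 E17.5 together) and named from marker genes, so each class is called acinar-like, beta-like and so on. The 8 libraries held 57982 barcodes with 200 or more genes, and 15671934 to 196793242 unique molecular identifiers (UMIs, each counting 1 captured transcript) per library. There were 8682 acinar-like cells in 8 libraries, 1679 beta-like in 6 (neither E12.5 library held 20 of them, the minimum for a sum), 2070 alpha-like in 8, 1730 Fev+-like in 8, and 8062 fibroblast-like in 6. The v1 E17.5 library held only 30 acinar-like cells, with 118254 UMIs in all. Acinar marker genes together took 11120 to 166800 CPM (UMIs of a gene or list in every 1000000 UMIs of the class) in acinar-like cells against at most 884.9 in beta-like and 8582 in fibroblast-like cells, and beta-like and alpha-like cells had more of their own markers than of any other class in every library. Epsilon markers in alpha-like cells ran from 137.3 to 35830 CPM, against 40300 to 119100 CPM of alpha markers, and were highest in v1 E17.5. Fev+-like cells held 6494 to 18630 CPM of their own markers, but in v1 E12.5 alpha markers, at 20070 CPM, exceeded them. Erythroid markers reached 64990 CPM in acinar-like, 58850 in beta-like, 21060 in alpha-like, 23920 in Fev+-like and 20460 in fibroblast-like cells, and in Fev+-like cells they exceeded the class's own markers in v1 E14.5 batch 2 and v1 E17.5. Fibroblast-like cells held 2423 to 16500 CPM of their own markers, more than of acinar markers in each library (erythroid markers exceeded own markers in both E17.5 libraries), but in v1 E14.5 batch 1 acinar markers reached 8582 and digestive enzymes 10370 CPM in that class, where another library had as little as 53.28 CPM of acinar markers. The part of these transcripts in the results was not tested. Without that library 20 members were higher and 2 lower in acinar-like than in fibroblast-like cells (1960 and 2367 of all 11238 genes). Acinar-like cells spent 1.3 to 23.9% of their UMIs on digestive enzymes. Libraries of one kit shared 19 to 35 barcodes pairwise (v1) or 87 to 156 (v2), at most 1.79% of a library.

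A level below is a share of all UMIs of a class in a library, in CPM, given as lowest, median and highest over libraries. A fold is the log2 ratio fitted by edgeR's quasi-likelihood test on the UMI sums, with the library as a block, with its standard error (SE). It uses trimmed-mean (TMM) scaling, which sets aside the few genes that fill a secretory cell, so a fitted fold can lie above the ratio of the CPM values. A gene is called at an adjusted p under 0.05 (Benjamini-Hochberg over all genes tested), and levels are compared between classes, never between genes. The 4 class comparisons share the acinar-like sums and are not independent of one another.

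Summed over the 36 genes, ER folding and stress transcripts made up the largest share of UMIs in beta-like cells. They took 14890, 19210 and 22840 CPM there (lowest, median, highest of 6 libraries) and 7421, 12280 and 15840 CPM in acinar-like cells (8 libraries). The acinar-like values include both E12.5 libraries, which the beta-like values lack, so these ranges are not over the same stages. Alpha-like cells had 7077, 9058 and 11050, Fev+-like cells 4750, 8026 and 9055, and fibroblast-like cells 6847, 8735 and 12160 CPM. The ranges of acinar-like and beta-like cells overlapped slightly, and the range of acinar-like cells overlapped with those of the other 3 classes.

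Against beta-like cells, acinar-like cells were lower in most chaperones and higher in a few single genes. Of 35 members tested, 6 were higher in acinar-like cells and 16 lower, where 28.2% and 25.3% of all 9857 genes tested were called in these directions. At 2-fold or more the counts were 5 and 11, against 19.8% and 18.2% of all genes. The median log2 fold was −0.50 over the members and 0.03 over all genes. Over all genes 2776 were higher and 2495 lower with TMM and 1970 and 3524 without it, a shift of the median by −0.318, and over the members 5 and 23 without it. With no library block 9 members were lower, and over all genes 2093 instead of 2495.

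Against the other 3 classes the balance lay on the higher side. In comparison with alpha-like cells 17 of 35 members were higher (28.5% of all genes) and 4 lower (30.1%), with a median of 0.43 against −0.03 over all genes. In comparison with Fev+-like cells 19 of 32 were higher (28.7%) and 4 lower (29.0%), with a median of 0.79 against −0.01. In comparison with fibroblast-like cells 19 of 35 were higher (20.6%) and 3 lower (23.6%), with a median of 0.60 against −0.06. At 2-fold or more 7 and 2 members were higher and lower than in alpha-like cells (16.4% and 17.9% of all genes), 11 and 2 than in Fev+-like cells (15.6% and 14.3%), and 13 and 3 than in fibroblast-like cells (12.9% and 18.6%). Without v2 E12.5 or without the Fev-Cre library, 2 members instead of 4 were lower than in alpha-like cells. Over all genes 2128 of 7009 and 1922 of 7004 were then lower, and 2961 of 9829 with every library. Without TMM, the members called higher and lower were 10 and 6, 10 and 6, and 12 and 7. The split over all genes then moved from 2800 higher and 2961 lower to 1580 and 4359 (alpha-like), from 2119 and 2138 to 999 and 3610 (Fev+-like), and from 2260 and 2586 to 1326 and 3927 (fibroblast-like), with shifts of the median by −0.433, −0.552 and −0.394.

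**Figure D1:**
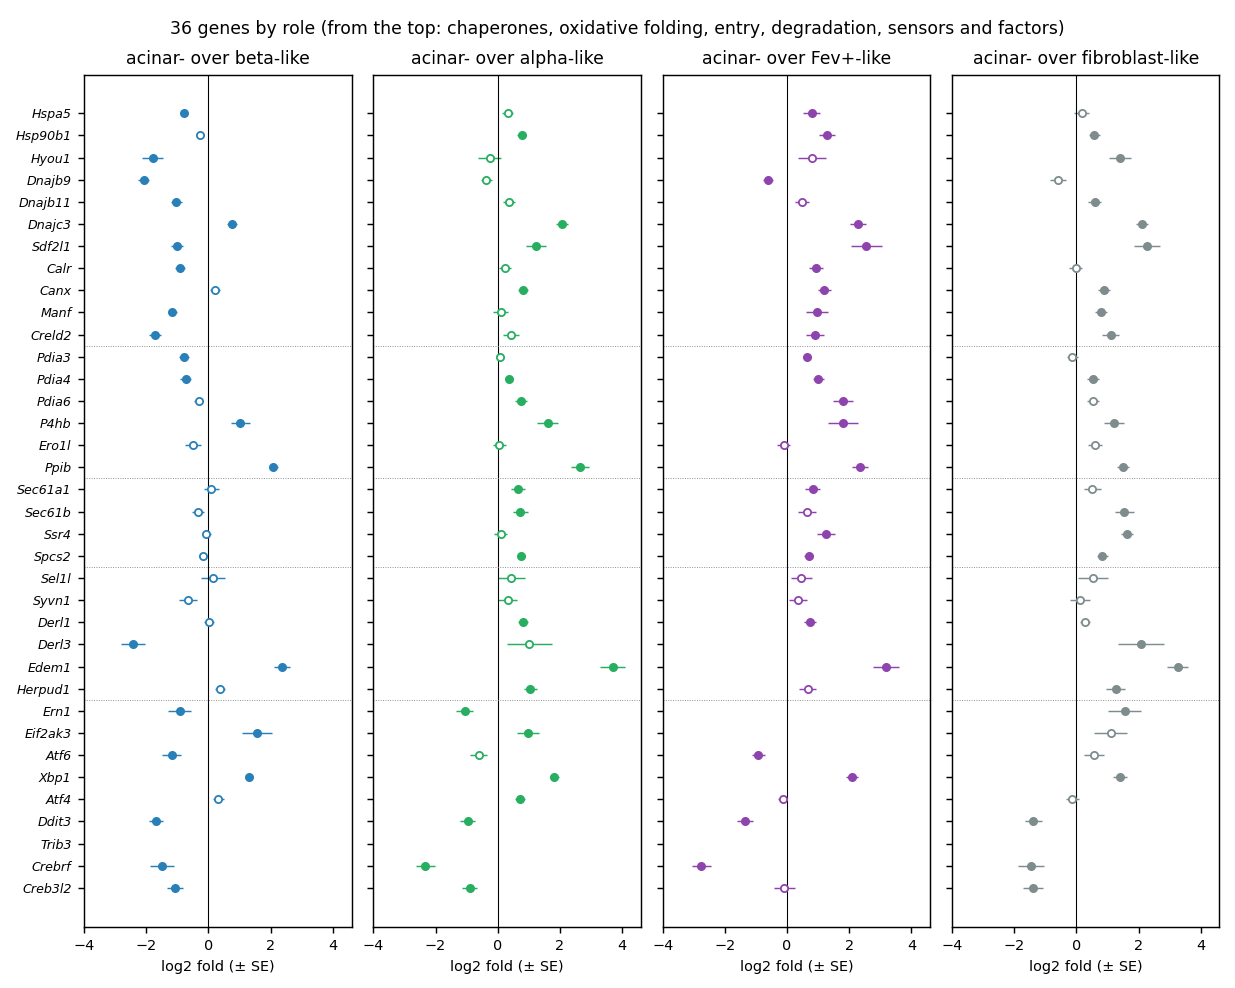
Fitted log2 fold of each of the 36 genes in acinar-like cells against beta-like, alpha-like, Fev+-like and fibroblast-like cells, 1 panel per comparison, genes grouped by role. Bars are SE, filled points have an adjusted p under 0.05 and genes not tested have no point. *Edem1* and *Ppib* lie on the right in every panel, and the called chaperones other than *Dnajc3* lie left of 0 in the beta-like panel.

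Among the chaperones 8 of 11 were lower and 1 higher in acinar-like than in beta-like cells (25.3% and 28.2% of all genes), so they made up 8 of the 16 members called lower. *Creld2*, which encodes a secreted ER stress-inducible protein, had 382.7, 719.9 and 872.6 CPM in beta-like and 82.89, 139.9 and 211.8 CPM in acinar-like cells. The ranges did not overlap, and the fold was −1.72 (SE 0.181, adjusted p = 5.07e-06). *Dnajb9*, an ER co-chaperone of BiP, had 135.8, 204.9 and 254.2 CPM in beta-like and 26.05, 34.89 and 48.38 CPM in acinar-like cells, again without overlap (−2.09, SE 0.179, adjusted p = 7.93e-07). *Hyou1*, a large ER chaperone of the Hsp70 class, had 83.88, 107.0 and 160.6 CPM against 8.5, 18.77 and 73.59, also without overlap (−1.80, SE 0.335, adjusted p = 0.000602).

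*Hspa5*, which encodes BiP, the main Hsp70 chaperone of the ER, had 1797, 2350 and 2615 CPM in beta-like cells and 623.7, 1018 and 1345 in acinar-like cells. Every beta-like value was above every acinar-like value, and the fold was −0.79 (SE 0.137, adjusted p = 0.000366). *Calr* (−0.91), a lectin chaperone of glycoproteins, and *Manf* (−1.17), a secreted ER stress protein, were lower without overlap, too. *Dnajb11* (−1.03), another co-chaperone of BiP, and *Sdf2l1* (−1.01), a partner of it, were lower in 6 of 6 libraries although their ranges met. The lectin chaperone *Canx* (0.21, with the other sign without TMM) and *Hsp90b1* (−0.27), the Hsp90 of the ER, did not pass the test, although without TMM *Hsp90b1* was called lower (−0.60, adjusted p = 0.00317).

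Against the other classes most of these chaperones changed side or lost their difference. *Sdf2l1* had 14.65, 69.77 and 124.6 CPM in Fev+-like cells, 99.34, 146.4 and 250.8 in alpha-like, 55.6, 79.12 and 205.7 in fibroblast-like, and 577.5, 969.8 and 1322 in beta-like cells, against 89.51, 294.2 and 786.4 in acinar-like cells. By median, acinar-like cells lay between beta-like cells and the rest, with folds of 2.55 (SE 0.504) against Fev+-like, 1.24 (0.318) against alpha-like and 2.26 (0.415) against fibroblast-like cells. *Hspa5* was higher in acinar-like than in Fev+-like cells (0.79, SE 0.276, adjusted p = 0.0271), a call lost without v1 E14.5 batch 1 (adjusted p = 0.0609). It did not pass against alpha-like (0.32) or fibroblast-like cells (0.17), and both of those values changed sign without TMM.

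*Dnajc3*, an ER co-chaperone that also restrains PERK, was the chaperone that set acinar-like cells apart. It had 178.9, 248.3 and 431.3 CPM in acinar-like cells, 39.03, 80.37 and 123.1 in Fev+-like, 62.87, 77.06 and 133.1 in alpha-like, 48.31, 88.16 and 154.3 in fibroblast-like, and 188.3, 218.3 and 261.5 in beta-like cells. All acinar-like values exceeded all those of Fev+-like, alpha-like and fibroblast-like cells, while the acinar-like and beta-like ranges overlapped. The folds were 2.28 (SE 0.267), 2.07 (0.192), 2.1 (0.19) and 0.75 (0.161), all called. Its promoter holds an ERSE, as do those of *Hspa5*, *Calr* and *Creld2*, which were lower than in beta-like cells.

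Counts of calls among the 11 chaperones were 4 higher and 0 lower against alpha-like cells (28.5% and 30.1% of all genes), 8 and 1 against Fev+-like cells (28.7% and 29.0%), and 8 and 0 against fibroblast-like cells (20.6% and 23.6%), so the share higher than in alpha-like cells was near that of all genes. *Hsp90b1* and *Canx* were higher in all 3, with folds of 0.57 to 1.29, but against fibroblast-like cells *Hsp90b1* (0.57) lost its call without v1 E14.5 batch 2 (adjusted p = 0.0523) and without the Fev-Cre library (0.0528). *Hyou1* (1.40, SE 0.362), *Manf* (0.79), *Creld2* (1.11) and *Dnajb11* (0.59) were higher than in fibroblast-like cells. The call of *Dnajb11* was lost without any one of 6 libraries (adjusted p 0.052 to 0.0872). *Calr* (0.93), *Manf* (0.95) and *Creld2* (0.89) were higher and *Dnajb9* (−0.61, SE 0.17) lower than in Fev+-like cells, where *Manf* lost its call without v1 E14.5 batch 1, v1 E17.5 or v2 E14.5 (adjusted p 0.0547 to 0.0822). Without TMM the higher calls of *Canx* against alpha-like (0.40) and fibroblast-like cells (0.51), of *Hsp90b1* (0.19), *Manf* (0.42) and *Dnajb11* (0.21) against fibroblast-like cells, and of *Hspa5* (0.25), *Calr* (0.37), *Creld2* (0.35) and *Manf* (0.41) against Fev+-like cells were lost. *Dnajb9* was then called lower than in alpha-like (−0.81) and fibroblast-like cells (−0.97), and *Calr* lower than in fibroblast-like cells (−0.39).

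**Figure D2:**
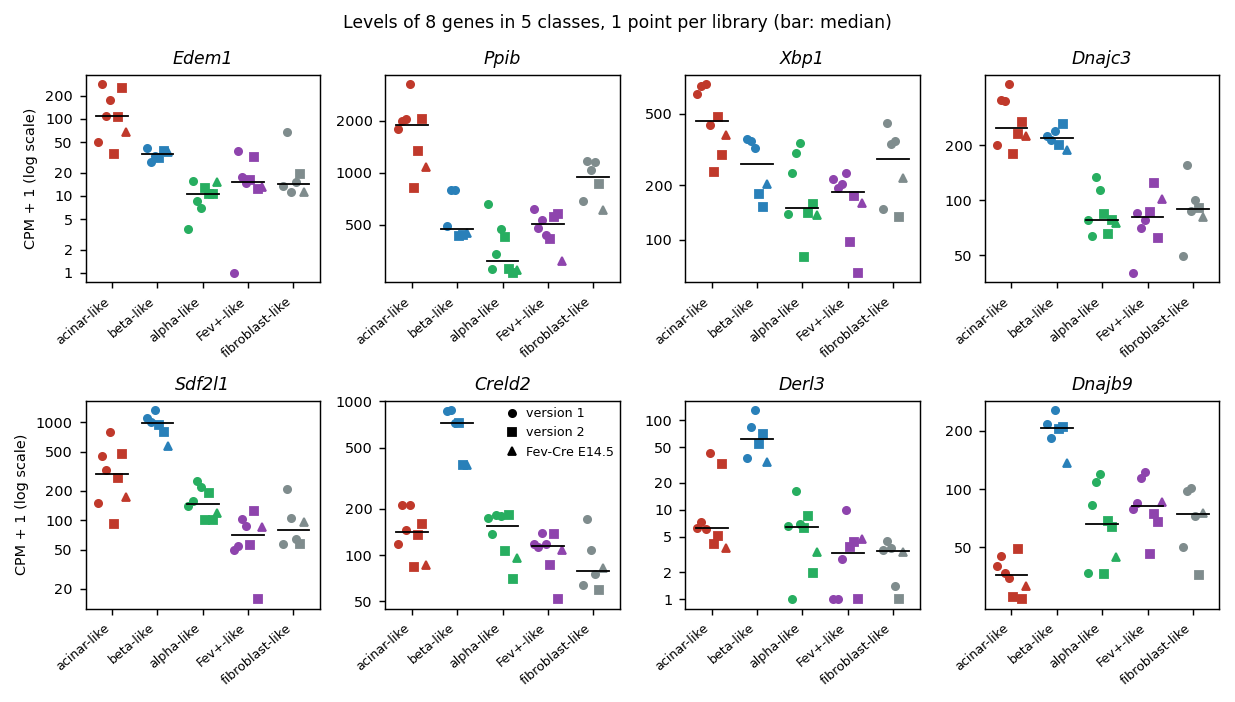
Levels of *Edem1*, *Ppib*, *Xbp1*, *Dnajc3*, *Sdf2l1*, *Creld2*, *Derl3* and *Dnajb9* in CPM plus 1 on a log axis, for the 5 classes. Each point is 1 library, its shape gives the kit, and each bar is the median. Acinar-like cells have the highest median in the upper row, with 107.8 (*Edem1*), 1892 (*Ppib*), 454.6 (*Xbp1*) and 248.3 CPM (*Dnajc3*), and beta-like cells in the lower row.

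Among the genes of oxidative folding and isomerization, *Ppib* stood out. It encodes cyclophilin B, an ER proline isomerase, and had 819.4, 1892 and 3281 CPM in acinar-like cells. Beta-like cells had 427, 467.6 and 797.5, alpha-like cells 261, 306.8 and 657.2, Fev+-like cells 305.1, 503.8 and 614.7, and fibroblast-like cells 609.9, 945.9 and 1167 CPM. The acinar-like range lay above those of the 3 endocrine classes and met only that of fibroblast-like cells. The folds were 2.09 (SE 0.159) against beta-like, 2.64 (0.28) against alpha-like, 2.34 (0.259) against Fev+-like and 1.49 (0.194) against fibroblast-like cells, with adjusted p-values of 9.42e-05 or less.

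*P4hb*, the founding protein disulphide isomerase, had folds of 1.02 (SE 0.304) against beta-like, 1.60 (0.324) against alpha-like, 1.79 (0.49) against Fev+-like and 1.21 (0.313) against fibroblast-like cells. Its acinar-like level of 201.9, 341.7 and 1064 CPM overlapped with every class, and against beta-like cells it was higher in 4 of 6 libraries and lost its call without TMM (0.68, adjusted p = 0.063). The isomerases *Pdia3* (−0.78) and *Pdia4* (−0.73) were lower than in beta-like cells without overlap, whereas *Pdia6* (−0.32, adjusted p = 0.0555) did not pass. Against Fev+-like cells *Pdia3* (0.63), *Pdia4* (1.01) and *Pdia6* (1.79) were higher. Against alpha-like cells *Pdia6* (0.76) and *Pdia4* (0.36, adjusted p = 0.0454) were higher, but the *Pdia4* value was −0.06 without TMM and the call was lost in 6 of 8 fits that left out 1 library (0.23 to 0.40). *Pdia4* was also higher than in fibroblast-like cells (0.54), a call lost without v1 E12.5, v1 E14.5 batch 2 or v2 E17.5 (adjusted p 0.0718 to 0.132). *Ero1l*, which encodes the oxidase that recharges the isomerases, passed in no comparison (−0.50 to 0.60) with TMM. Without TMM *Ero1l* was called lower than in beta-like (−0.81) and Fev+-like cells (−0.68), *Pdia6* lower than in beta-like cells (−0.66) and *Pdia3* lower than in fibroblast-like cells (−0.51). The calls of *Pdia3* (0.06) and *Pdia4* (0.45) against Fev+-like and of *Pdia4* (0.16) against fibroblast-like cells were then lost.

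The 4 genes of ER entry did not pass against beta-like cells in either direction with TMM, but without it *Sec61b* (−0.68), *Spcs2* (−0.51) and *Ssr4* (−0.40) were called lower. *Spcs2*, a subunit of signal peptidase, was higher than in alpha-like (0.76, SE 0.126), Fev+-like (0.69, SE 0.145) and fibroblast-like cells (0.83, SE 0.175). *Ssr4*, a subunit of the translocon-associated complex, had 417.3, 520.9 and 1066 CPM in acinar-like and 192.9, 249.6 and 375 in fibroblast-like cells without overlap (1.62, SE 0.191), and was also higher than in Fev+-like cells (1.25). *Sec61b*, the beta subunit of the channel, was higher than in fibroblast-like cells without overlap (1.54, SE 0.303) and than in alpha-like cells (0.73). *Sec61a1*, its pore subunit, was higher than in alpha-like (0.64) and Fev+-like cells (0.82). Without v2 E17.5 the alpha-like calls of *Sec61b* (0.48, adjusted p = 0.0721) and *Sec61a1* (0.32, adjusted p = 0.0576) were lost. Without TMM the calls of *Sec61a1* against alpha-like (0.23) and Fev+-like cells (0.26), of *Sec61b* against alpha-like cells (0.33) and of *Spcs2* against Fev+-like cells (0.12) were lost as well.

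The largest positive fold of all members in each class comparison belonged to *Edem1*, which encodes a mannosidase-like protein that marks misfolded glycoproteins for degradation. Its gene lies on chromosome 6 (GRCm38, 108828641 to 108859356). It had 33.69, 107.8 and 283.3 CPM in acinar-like cells, 26.58, 34.4 and 41.17 in beta-like, 2.761, 9.54 and 14.51 in alpha-like, 0, 14.27 and 37.05 in Fev+-like, and 10.1, 13.36 and 66.76 in fibroblast-like cells. It was higher in acinar-like cells in every library of every comparison, although the ranges met for Fev+-like and fibroblast-like cells. In the libraries that each pair shares, the ranges did not overlap for beta-like and alpha-like cells. The folds were 2.37 (SE 0.258), 3.69 (0.413), 3.18 (0.406) and 3.26 (0.332) against beta-like, alpha-like, Fev+-like and fibroblast-like cells, with adjusted p-values of 4.14e-05 or less. The Fev+-like value of 0 was in a sum where a count of 0 allows up to 29.3 CPM.

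*Derl3*, a derlin of the retrotranslocation channel that is typical of secretory tissues, went the other way against beta-like cells. It had 32.88, 61.58 and 128.5 CPM in beta-like and 2.732, 5.179 and 42.28 CPM in acinar-like cells, and was lower in 6 of 6 libraries (−2.44, SE 0.389, adjusted p = 0.000186). The ranges met only through the v1 E17.5 acinar-like value of 42.28 CPM, which rests on 5 UMIs, while the v2 E17.5 value of 31.22 CPM (767 UMIs) lay just below the beta-like range. Against fibroblast-like cells, with 0 to 3.462 CPM, it was higher (2.08, SE 0.75, adjusted p = 0.0416), a call lost when any of v1 E12.5, v1 E14.5 batch 2, v1 E17.5 or v2 E17.5 was left out (1.27 to 2.30, adjusted p 0.0556 to 0.128) and without TMM (1.74, adjusted p = 0.077). No fibroblast-like sum held more than 34 UMIs of *Derl3*, and it did not pass the filter on low counts in the stage fit of fibroblast-like cells alone. The size of this difference is therefore uncertain.

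Other genes of degradation had smaller folds than *Edem1* in the fits over all libraries. *Herpud1*, a ubiquitin-like ER membrane protein, was higher than in alpha-like (1.05, SE 0.208) and fibroblast-like cells (1.26, SE 0.307) and had 0.37 against beta-like and 0.66 against Fev+-like cells, which did not pass. *Derl1*, a second derlin, was higher than in alpha-like (0.81) and Fev+-like cells (0.74). *Sel1l* and *Syvn1*, the adaptor and the ubiquitin ligase of the main degradation complex, passed in no class comparison with TMM. For *Sel1l* these fits joined stages with opposite differences. At v2 E17.5 it had 192.1 CPM in acinar-like, 61.43 in beta-like, 44.34 in alpha-like, 98.06 in Fev+-like and 38.72 in fibroblast-like cells. The v1 E17.5 values were 109.9 (13 UMIs), 58.88, 29.61, 45.02 and 47.95 CPM. At v2 E14.5 acinar-like cells (29.77) lay below beta-like (53.87), alpha-like (42.8) and Fev+-like cells (42.49). Classes were not tested within a stage. Without TMM *Syvn1* was called lower than in beta-like cells (−0.98), and *Derl1* lost its calls against alpha-like (0.39) and Fev+-like cells (0.19).

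The sensors and transcription factors held calls in both directions. *Xbp1*, whose mRNA is spliced by IRE1α and whose protein drives secretory capacity, was higher in acinar-like cells throughout, with 235.4, 454.6 and 729.3 CPM. Beta-like cells had 151.4, 261.8 and 361.4, alpha-like 78.62, 147.8 and 343.5, Fev+-like 64.25, 183.2 and 234.1, and fibroblast-like cells 132.6, 278.6 and 441.1 CPM. Only the Fev+-like range lay wholly below the acinar-like one, but within each library the acinar-like value was the higher one in all 6 or 8 libraries. Folds were 1.30 (SE 0.142), 1.82 (0.151), 2.1 (0.196) and 1.40 (0.238) in the same order. The counts do not distinguish spliced from unspliced *Xbp1*.

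*Ddit3*, which encodes CHOP, lay at the opposite end. It had 5.609, 11.23 and 42.28 CPM in acinar-like cells against 34.58, 42.16 and 85.64 in beta-like, 20.49, 26.09 and 65.14 in alpha-like, 18.78, 43.72 and 113.5 in Fev+-like, and 26.32, 45.3 and 84.83 in fibroblast-like cells. It was lower in every library of each comparison, and the ranges met only through the v1 E17.5 acinar-like value of 42.28 CPM, which rests on 5 UMIs. The folds were −1.69 (SE 0.239), −0.97 (0.245), −1.36 (0.264) and −1.38 (0.273). With cycling cells left out, *Ddit3* no longer passed against alpha-like, Fev+-like or fibroblast-like cells.

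*Crebrf*, a regulator that promotes the decay of CREB3, was also lower, from few UMIs. It had 0, 1.542 and 3.297 CPM in acinar-like cells, 4.574, 7.404 and 8.859 in beta-like, 5.522, 13.18 and 21.81 in alpha-like, 12.1, 19.02 and 48.79 in Fev+-like, and 2.431, 6.611 and 6.924 in fibroblast-like cells. Acinar-like values lay below the 3 endocrine ranges and met that of fibroblast-like cells. The folds were −1.49 (SE 0.385), −2.33 (0.301), −2.76 (0.297) and −1.46 (0.427), and the last lost its call without v1 E14.5 batch 1 (−1.31, adjusted p = 0.0688). In v1 E12.5 and v1 E17.5, with 0 UMIs, a count of 0 allows up to 7.83 and 25.4 CPM, so at this depth those libraries could not show the difference from alpha-like cells.

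The calls of the 3 membrane sensors went in different directions, and each rested on few UMIs in some libraries. *Eif2ak3* had 4.599, 7.909 and 42.28 CPM in acinar-like cells and 0, 4.297 and 13.29 in beta-like cells, overlapping, and was higher than in beta-like (1.56, SE 0.491, adjusted p = 0.0172) and alpha-like cells (0.98, SE 0.358, adjusted p = 0.0288). The acinar-like 42.28 CPM of *Eif2ak3*, in v1 E17.5, was 5 UMIs. Its beta-like sums held 1, 3 and 0 UMIs in v1 and 5 in v2 E14.5, and the 0 allows up to 8.03 CPM. It did not pass the filter on low counts in the stage fit of alpha-like cells alone. *Ern1* had 0, 5.649 and 8.988 CPM in acinar-like and 2.676, 11.87 and 22.87 in beta-like cells. In alpha-like cells *Ern1* had 0, 12.62 and 29.02 and in fibroblast-like cells 0, 1.919 and 6.429 CPM, with overlap everywhere. The *Ern1* values of 0 allow up to 7.83 CPM in acinar-like (v1 E12.5), 8.28 in alpha-like (v1 E12.5) and 2.9 in fibroblast-like cells (v2 E17.5). Its fold was −1.07 (SE 0.277, adjusted p = 0.0046) against alpha-like, −0.93 (0.363, adjusted p = 0.0455) against beta-like and 1.55 (0.525, adjusted p = 0.0321) against fibroblast-like cells. The beta-like call was lost without v1 E14.5 batch 1, v1 E14.5 batch 2 or v2 E14.5 (adjusted p 0.0551 to 0.185), and the fibroblast-like call without v1 E14.5 batch 2, v1 E17.5, v2 E17.5 or the Fev-Cre library (0.0613 to 0.104). *Atf6* had 0, 8.812 and 15.1 CPM in acinar-like cells and was lower than in beta-like (13.38, 27.8 and 41.17 CPM, −1.18, SE 0.301) and Fev+-like cells (12.62, 21.02 and 61.99 CPM, −0.92, SE 0.214). Its acinar-like value of 0, in v1 E17.5, allows up to 25.4 CPM. Without TMM the calls of *Eif2ak3* against alpha-like cells (0.52) and of *Ern1* against fibroblast-like cells (1.20) were lost, and *Atf6* was called lower than in alpha-like cells (−1.07).

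*Creb3l2*, an ER-anchored factor that controls genes of vesicle coats, had 5.223, 12.64 and 25.37 CPM in acinar-like cells and 43.13, 54.59 and 64.19 in fibroblast-like cells without overlap (−1.41, SE 0.321). It was lower than in beta-like (17.72, 41.11 and 86.91 CPM, −1.09, SE 0.257) and alpha-like cells (22.47, 28.88 and 47.49 CPM, −0.91, SE 0.255) as well. *Atf4*, the effector of PERK, had 49.66, 111.8 and 152.2 CPM in acinar-like and 49.22, 84.44 and 143.3 in alpha-like cells and passed with TMM only against the latter (0.72, SE 0.163). Without TMM that call was lost (0.30), and *Atf4* was called lower than in Fev+-like (−0.71) and fibroblast-like cells (−0.51). *Trib3*, a pseudokinase induced by ATF4 and CHOP, had at most 33.83 CPM in any class (4 UMIs in v1 E17.5 acinar-like cells) and passed the filter on low counts in no class comparison.

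Values of other cell programs differed between the classes. Immediate early genes, which respond to dissociation and include *Fos* and *Jun*, took 1182, 1938 and 3907 CPM in acinar-like, 1316, 2654 and 8941 in beta-like, 618.5, 1468 and 6490 in alpha-like, 2169, 4680 and 12730 in Fev+-like, and 1811, 5164 and 10920 in fibroblast-like cells. Of these genes 0 of 12 were higher and 6 lower in acinar-like than in Fev+-like cells (28.7% and 29.0% of all genes), and 1 and 9 of 14 against fibroblast-like cells (20.6% and 23.6%). Cell cycle genes took 676.5, 3327 and 5679 CPM in acinar-like cells against medians of 221.8 to 348.4 in the endocrine classes and 3160 in fibroblast-like cells. Their part in the results was not tested.

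Genes of the same pathway outside the list, taken from lists that share no gene with it, are read against the shares of all genes called higher, which were 28.2% (beta-like), 28.5% (alpha-like), 28.7% (Fev+-like) and 20.6% (fibroblast-like). The shares called lower were 25.3%, 30.1%, 29.0% and 23.6% in the same order. Among 19 other genes of ER entry, 2 were higher and 4 lower than in beta-like cells, while 7 and 1, 9 and 1, and 8 and 0 were higher and lower than in alpha-like, Fev+-like and fibroblast-like cells. For 19 genes of N-glycosylation and lectin control the counts were 3 and 3, 11 and 1, 13 and 1, and 8 and 1, in the same order. Other isomerases gave 6 and 6 of 19 against beta-like cells, led by *Prdx4* (2.70) and *Fkbp11* (2.11) on the higher and *Ero1lb* (−2.71) and *Fkbp14* (−2.70) on the lower side. Against alpha-like, Fev+-like and fibroblast-like cells they gave 9 and 6 of 19, 10 and 4 of 16, and 8 and 8 of 19. Other degradation genes gave 3 and 5 of 21, 6 and 4 of 21, 3 and 2 of 20, and 5 and 1 of 21. Genes of transport to the Golgi gave 3 and 4 of 20, 6 and 3 of 20, 5 and 0 of 18, and 4 and 4 of 21. For degradation and transport the counts on the higher side lay near or below the shares of all genes.

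Targets of ATF4 and CHOP leaned towards acinar-like cells in spite of the low *Ddit3*. Of 19 tested, 11 were higher and 3 lower than in beta-like cells, with *Nupr1* (7.24), a stress-inducible chromatin protein, and *Phgdh* (5.11), the first enzyme of serine synthesis, at the top. The counts were 11 and 2 of 19 against alpha-like, 10 and 2 of 18 against Fev+-like, and 10 and 3 of 19 against fibroblast-like cells. Of all genes 28.2% (beta-like), 28.5% (alpha-like), 28.7% (Fev+-like) and 20.6% (fibroblast-like) were called higher. Together these genes took 1726, 2638 and 5928 CPM in acinar-like cells and had medians of 642.2 to 965.1 CPM in the others. Cytosolic and mitochondrial chaperones, which do not serve the ER, gave 11 and 2 of 21 against beta-like, 11 and 5 of 21 against alpha-like, 5 and 4 of 20 against Fev+-like and 11 and 2 of 21 against fibroblast-like cells.

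Over stages, most of the ER genes rose in acinar-like cells. Between E12.5 and E17.5, 23 of the 36 members were higher and 0 lower (edgeR quasi-likelihood test over 7 Swiss Webster libraries, with the kit as a block), where 10.8% of all 11509 genes were called higher and 10.3% lower. All 36 fitted values were positive, of which those of *Canx*, *Pdia3*, *Pdia4*, *Dnajb9*, *Xbp1* and *Spcs2*, none of them called, turned negative without TMM, with a median log2 fold of 1.57 against −0.09 over all genes. At 2-fold or more 22 members were higher (10.5% of all genes). At an unadjusted p under 0.05 there were 29 members, all higher, and 3752 of all 11509 genes in either direction. DESeq2 called 20 members higher and 0 lower, and 840 and 793 of all genes. Without TMM 16 members were higher and 0 lower, while over all genes the split moved from 1246 higher and 1190 lower to 610 and 3678 and the median shifted by −0.776.

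All 6 genes of ER-associated degradation rose (10.8% of all genes), with a median of 3.18, although without TMM *Syvn1* (1.25, adjusted p = 0.0808) and *Derl1* (0.31, adjusted p = 0.471) lost their calls. In the order of the stages *Derl3*, whose upstream sequence is printed above, had 5.223, then 6.292 and 5.136 (the E14.5 batches), then 42.28 CPM in v1, and 3.141, 4.061 and 31.22 in v2. The E17.5 values were the highest in both kits, although those of v1 rest on 2 UMIs at E12.5 and 5 at E17.5. The fold was 4.04 (SE 0.594, adjusted p = 2.14e-08). *Sel1l* had 15.67, then 52.96 and 20.54, then 109.9 CPM in v1, and 27.82, 29.77 and 192.1 in v2, likewise highest at E17.5 (3.51, SE 0.398, adjusted p = 1.12e-12). Its v1 values rest on 6 UMIs at E12.5 and 13 at E17.5.

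*Edem1* had 49.62, then 283.3 and 109.1, then 177.6 CPM in v1 and was highest there in an E14.5 batch, while it rose step by step in v2, from 33.69 to 106.4 and 252.3 (3.31, SE 0.383, adjusted p = 2.68e-12). *Herpud1* had 44.39, then 184.6 and 173.3, then 321.3 CPM in v1 and 33.5, 97.97 and 137.8 in v2, rising at each stage in both (3.06, SE 0.353). *Syvn1* (2.04, SE 0.53, with 2 and 1 UMIs at the end stages in v1) and *Derl1* (1.05, SE 0.361) rose less.

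**Figure D3:**
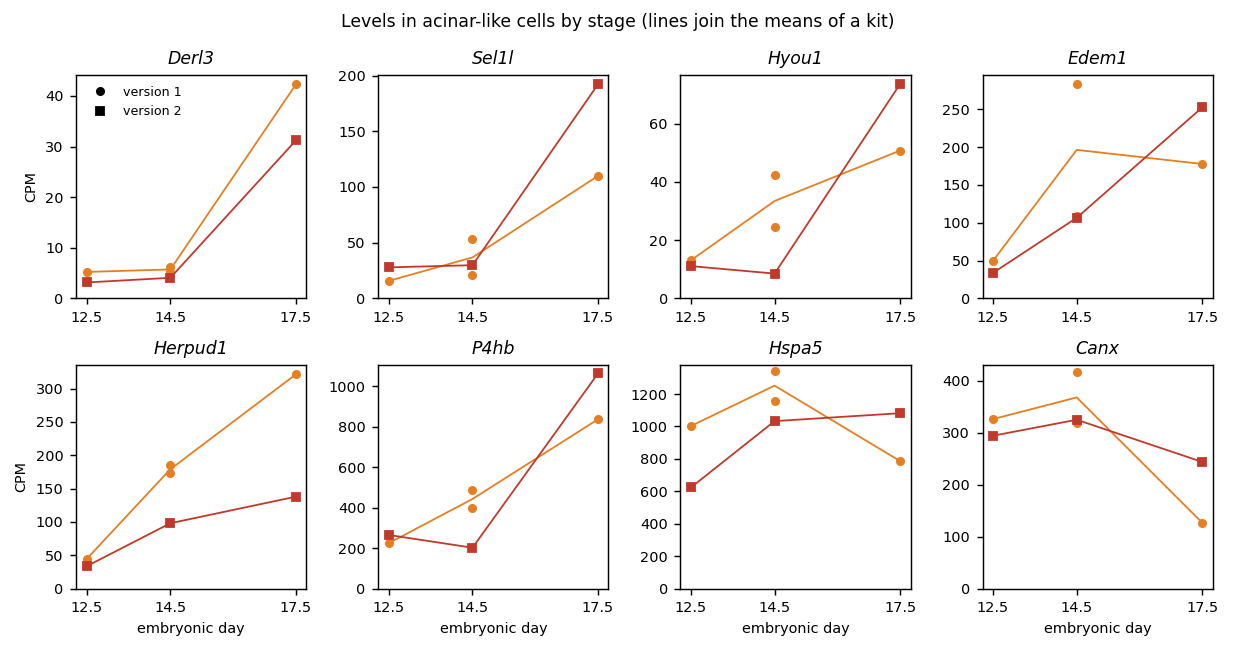
Levels of *Derl3*, *Sel1l*, *Hyou1*, *Edem1*, *Herpud1*, *P4hb*, *Hspa5* and *Canx* in acinar-like cells, in CPM, against embryonic day. Points are libraries of the v1 and v2 kits, and lines join the mean of each kit at each stage. *Derl3* reaches 42.28 (5 UMIs) and 31.22 CPM at E17.5 from 5.223 (2 UMIs) and 3.141 at E12.5, whereas *Canx* ends at 126.8 and 243.9 from 326.4 and 294.4.

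Of 11 chaperones 6 rose, where 10.8% of all genes did. *Hyou1* had 13.06, then 24.47 and 42.37, then 50.74 CPM in v1 and 11.07, 8.5 and 73.59 in v2, with the highest value at E17.5 in both (3.33, SE 0.433, adjusted p = 3.24e-10). In v1 that rests on only 5 UMIs at E12.5 and 6 at E17.5. *Sdf2l1* went from 148.8 to 451.3 and 322.3 to 786.4 CPM in v1 and from 89.51 to 266.2 to 473.6 in v2 (3.11, SE 0.356). *Creld2* (1.62), *Dnajc3* (1.53), *Manf* (1.52) and *Hspa5* (0.96, adjusted p = 0.0401) rose as well. The level of *Hspa5* was 1003 CPM at E12.5 and 786.4 at E17.5 in v1 and 623.7 and 1082 in v2, so as a share of UMIs it was higher at E17.5 only in v2, and its call was lost without TMM (0.26). *Canx* (0.09) and *Dnajb9* (0.61) did not pass, and as shares of UMIs they were lower at E17.5 in both kits.

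*P4hb* led the isomerases, with 224.6, then 486.6 and 399.3, then 837.2 CPM in v1, and 264.9, 201.9 and 1064 in v2 (2.69, SE 0.363, adjusted p = 1.26e-09). *Ppib* (1.78, SE 0.37) and *Pdia6* (1.27, SE 0.351, a call lost without TMM at 0.58) rose as well, and *Ero1l* (1.24), *Pdia3* (0.42) and *Pdia4* (0.39) did not pass. For entry into the ER, *Sec61b* (1.90, SE 0.361), *Sec61a1* (1.85, SE 0.346) and *Ssr4* (1.62, SE 0.346) rose and *Spcs2* (0.66) did not pass.

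Among the sensors and factors 5 of 9 rose with TMM (10.8% of all genes), and without it *Creb3l2* (1.32), *Atf6* (1.07) and *Atf4* (0.34) lost their calls. *Eif2ak3* went from 5.223 (2 UMIs) to 42.28 CPM (5 UMIs) in v1 and from 4.599 to 18.48 in v2 (2.94, SE 0.572). *Creb3l2* (2.08, SE 0.512), *Trib3* (3.43, SE 0.862), *Atf6* (1.87, SE 0.595) and *Atf4* (1.08, SE 0.337) rose too, with at most 4 UMIs of *Trib3* and 1 of *Atf6* in the v1 end libraries. *Xbp1*, the factor that was highest in acinar-like cells among classes, had 642.4, then 709.6 and 729.3, then 431.3 CPM in v1 and 235.4, 478 and 292.3 in v2. It peaked at E14.5 in both kits and did not pass between the end stages (0.57, adjusted p = 0.248, a sign that turned without TMM). *Ddit3* (1.16), *Crebrf* (1.04) and *Ern1* (1.71, adjusted p = 0.0529) did not pass.

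Within each kit, 25 of the 36 genes had a higher share of UMIs at E17.5 than at E12.5 in v1 (median ratio 1.69) and 33 in v2 (1.77), and 24 did in both. Over the 11509 genes tested the share was higher for 22.8% in v1 (median ratio 0.36), 21.6% in v2 (0.538) and 11.3% in both. In alpha-like cells 29 of the 36 were higher in v1 (1.27) and 21 in v2 (1.06), where 44.3% and 38.8% of those genes were. Fibroblast-like cells had 31 in v1 (1.46, 32.5% of genes), and Fev+-like cells 20 in v1 (1.09, 46.3%) and 15 in v2 (0.829, 48.8%). Many of the calls, over all genes as over the members, rested on 1 library. Without v2 E17.5, whose acinar-like sum is the deeper of the pair, 206 of 11259 genes were called higher (1.83%, against 10.8% with it), and the median over all genes was −1.05 against 1.17 over the members. In that fit 6 members were called, *P4hb* (1.94), *Herpud1* (3.17), *Sdf2l1* (2.98), *Sel1l* (2.63), *Edem1* (2.22) and *Sec61b* (1.88), and the *Atf6* value was −9.15 because the remaining E17.5 library held 0 of its UMIs. Without v2 E12.5 fewer members and fewer genes were called as well, with a median of 1.568 over the members against 0.064 over all genes. Leaving out any other library gave medians of 1.573 to 1.647 over the members and −0.106 to 0.014 over all genes.

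Stage, litter and dissociation time cannot be told apart in these libraries. In acinar-like cells the summed immediate early genes had 1434 and 1182 CPM at E12.5 (v1, v2) and 1869 and 1645 at E17.5, and 7 of 14 were higher and 0 lower in the test (median 1.18). Digestive enzymes went from 22440 and 13010 CPM to 238900 and 214700, with 33 of 35 higher (median 7.47), and cell cycle genes from 3254 and 3020 to 676.5 and 1107 CPM, with 13 of 28 lower. Over all genes 10.8% were called higher and 10.3% lower. Of acinar-like cells 84.5% (v1) and 89.6% (v2) held 5 or more cell cycle UMIs at E12.5, and 10.0% and 36.5% at E17.5. Cells of this name thus differed in state between the stages. The part of any of these lists, or of this change of the class, in the rise was not tested.

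The lists beside the members showed which parts of the secretory route rose in acinar-like cells over the same stages, where 10.8% of all genes were called higher and 10.3% lower. Transport to the Golgi gave 13 of 21 higher and 0 lower, with *Sec16b* (4.87) and *Kdelr3* (4.34) in front. N-glycosylation gave 14 and 0 of 19, other genes of ER entry 12 and 1 of 19, led by *Sec11c* (5.10), other isomerases 8 and 1 of 19, led by *Fkbp11* (4.71), and other degradation genes 7 and 0 of 21. ATF4 and CHOP targets gave 12 and 0 of 20, with *Chac1* (4.89) and *Atf3* (4.41), the latter also an early responder to many other stresses. Cytosolic and mitochondrial chaperones went the other way, with 1 higher and 7 lower of 21 and a median of −0.59.

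The rise was tested against that of alpha-like cells, which were present in the same 7 libraries. In v1 E17.5 this class held only 47 cells and had its highest level of epsilon markers. At Leiden resolution 2 no cluster of that library was named alpha-like or Fev+-like, so both classes depend there on the clustering. In alpha-like cells themselves 2 of 28 members tested were higher at E17.5 (2.08% of all genes) and 0 lower (1.65%), and DESeq2 also called 2. These were *Herpud1* (1.36, SE 0.316, adjusted p = 0.0255) and *Xbp1* (1.20, SE 0.28, adjusted p = 0.0255), with a median of 0.25 over the members. *Xbp1* in alpha-like cells had 138.1, then 232.1 and 299.5, then 343.5 CPM in v1 and 78.62, 139.1 and 156.5 in v2, rising at each stage in both kits. The difference of the stage changes itself was called for 21 of 35 members, all with the greater rise in acinar-like cells (12.7% of all 9664 genes, 6.58% in the other direction), with a median of 1.46 against 0.07 over all genes. Of these genes *Derl3* (6.17, SE 0.85), *Edem1* (3.79, SE 0.472), *Eif2ak3* (2.4) and *Syvn1* (1.96) did not pass the filter on low counts in alpha-like cells alone and entered this fit through acinar-like cells. Alpha-like cells held 2 UMIs of *Derl3* at E12.5 and 1 at E17.5 in v1 and 23 and 4 in v2, and 1 and 1 UMIs of *Edem1* in v1 and 51 and 39 in v2, so the sizes of these differences are uncertain. Over the 28 members that also passed the filter in alpha-like cells, 17 were called and 0 in the other direction, with a median of 1.43, where 12.6% and 8.68% of 6013 genes were called and the median was −0.02. The largest value among them was that of *Sel1l* (4.07, SE 0.385). How far these differences hold without TMM, without 1 library or with other clusters is not given here. Immediate early genes rose in alpha-like cells too, in 7 of 13, with a median of 2.13.

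**Figure D4:**
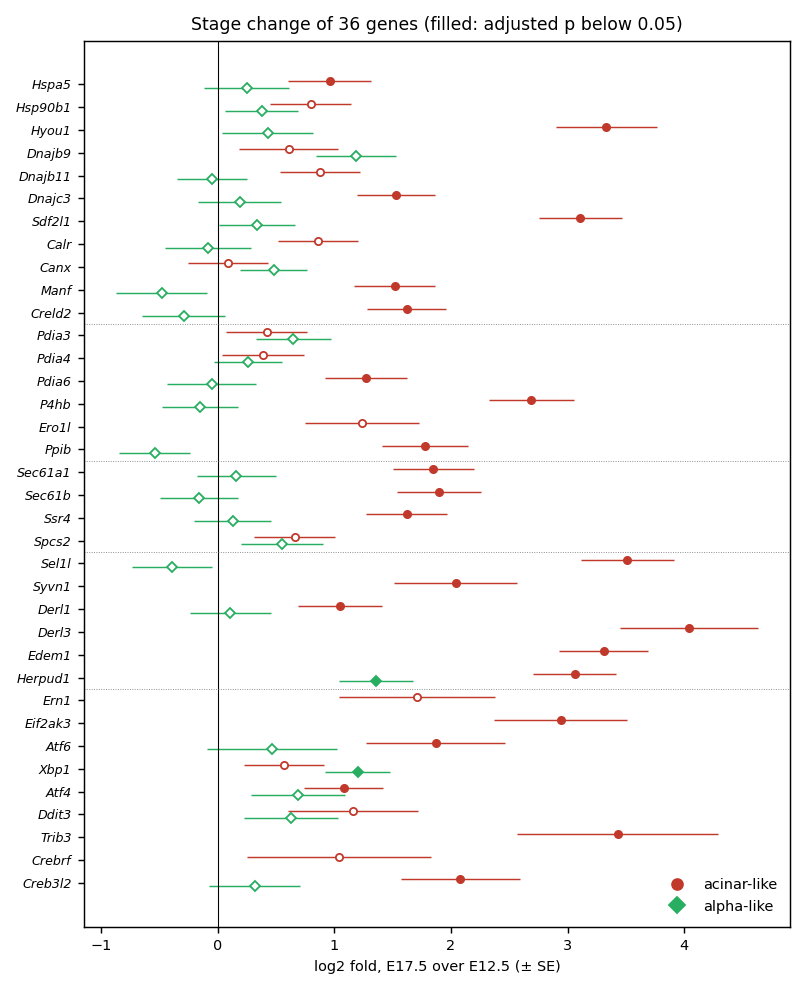
Log2 fold of E17.5 over E12.5 for each member in acinar-like cells (circles) and alpha-like cells (diamonds), with SE bars, filled where the adjusted p is under 0.05. Acinar-like circles lie right of 0 for all 36 genes (left of it without TMM for *Canx*, *Pdia3*, *Pdia4*, *Dnajb9*, *Xbp1* and *Spcs2*), while the alpha-like diamonds gather around 0 with a median of 0.25.

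In the other classes few members passed. Fev+-like cells gave 0 of 32 in either direction by edgeR (0.212% of all genes higher and 0.756% lower) and 0 by DESeq2. At an unadjusted p under 0.05 there were 6 members, of which 5 were higher, and 838 of all 7537 genes. Fibroblast-like cells gave 1 of 34 (4.48% higher) and 0 lower (1.07%), *Ddit3* (1.97, SE 0.434, adjusted p = 0.0442), from a fit with 1 residual degree of freedom, and DESeq2 gave 0. At an unadjusted p under 0.05 there were 8 members and 2132 of all 11572 genes. Of the 34 fitted values in fibroblast-like cells 33 were positive, with a median of 0.84 against −0.01 over all genes, and in Fev+-like cells the median was −0.01 against 0.04. The difference between the stage changes of acinar-like and fibroblast-like cells was called for 1 of 36 (0.161% of all genes), *Sdf2l1* (2.46, SE 0.459, adjusted p = 0.045), with a median of 0.60 over the members against 0.15 over all genes. Beta-like cells had no E12.5 sum and were not fitted. From E14.5 to E17.5 12 members had a higher and 15 a lower share of UMIs in both kits, some by very little (*Eif2ak3* 4.02 and 4.019 CPM in v2). The share over all genes was not counted, and beta markers alone took 9.33 to 39.5% of beta-like UMIs. These counts therefore do not show whether the members moved apart from other genes.

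The ER genes also varied with enzyme content among acinar-like cells of one library. In each of 5 libraries with 200 or more acinar-like cells, the cells were split into 4 groups of equal size by the share of their UMIs from digestive enzymes, and members were counted in CPM over the UMIs that remain when enzymes are left out. From the group poorest to the group richest in enzymes, the 36 genes together went from 11890 to 17590 CPM in v1 E14.5 batch 1, from 6750 to 8302 in v2 E12.5, from 10260 to 14080 in v2 E14.5, from 14090 to 20100 in v2 E17.5 and from 8113 to 10760 in the Fev-Cre library. The richest group was higher in each library, and 25 of 36 genes were higher in it in all 5, while 0 were lower in all 5. Among genes with 20 or more UMIs in these outer groups of every library, 23 of 33 members were higher in all 5, against 757 of 8109 genes (9.34%), and 20.8% of genes were lower in all 5. Cells of one library are not replicates, so no test was made.

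By single gene, *Edem1* in the richest group was 1.9 times the poorest in v1 E14.5 batch 1 (200.2 and 380.8 CPM), 1.68 in v2 E12.5, 1.86 in v2 E14.5, 1.55 in v2 E17.5 and 2.13 in the Fev-Cre library. *Hspa5* was 1.46 times (1167 and 1708 CPM), 1.09 (606.9 and 659.6), 1.3, 1.4 and 1.28 times the poorest in the same order. *Ero1l* was higher in the richest group in 1 of 5 libraries. In v2 E17.5 enzymes took 10.5% of UMIs in the poorest and 38.3% in the richest group, and the median cell had 14124.5 UMIs in the poorest and 7264 in the richest group. Immediate early genes rose from the poorest to the richest group as well, 2.17 times in v1 E14.5 batch 1, 1.03 in v2 E12.5, 1.67 in v2 E14.5, 1.24 in v2 E17.5 and 1.53 in the Fev-Cre library, where the members together rose 1.48, 1.23, 1.37, 1.43 and 1.33 times. Cell cycle genes were lower in the richest group, at 0.155 times the poorest in v2 E17.5 and 0.75 to 0.882 times in the other 4 libraries. The part of cell depth, immediate early genes or the cell cycle in this gradient was not tested.

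**Figure D5:**
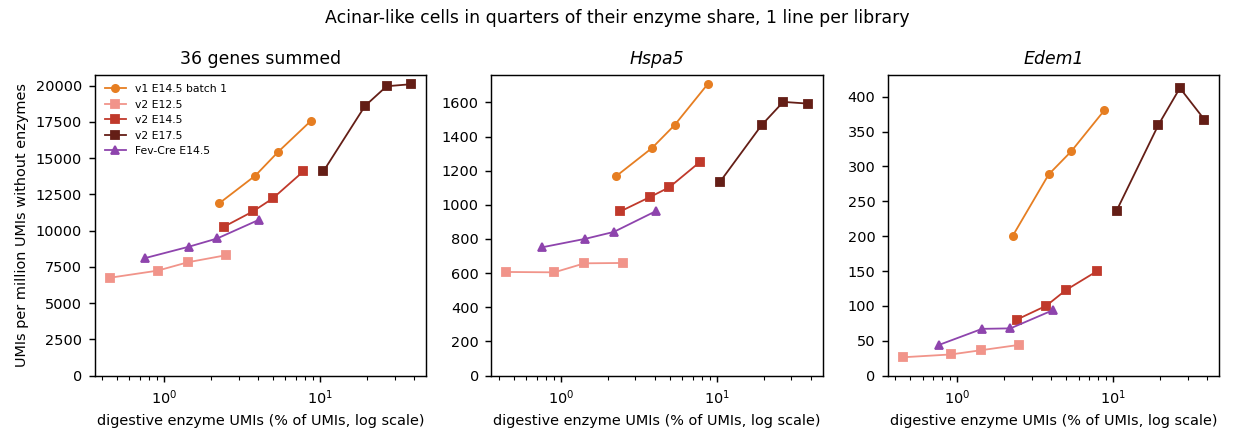
CPM over non-enzyme UMIs of the 36 genes summed, of *Hspa5* and of *Edem1*, against the percentage of UMIs from digestive enzymes on a log axis, in 4 equal groups of acinar-like cells ordered by that percentage. Each line is 1 of 5 libraries and each point a group of its cells. The last point of each line lies above its first, as from 14090 to 20100 for the 36 genes in v2 E17.5.

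The members were also described by promoter element, beside the shares of all genes called higher and lower. Of those tested with an ERSE or ERSE-II, 1 of 11 was higher and 5 lower than in beta-like cells (median −0.66), against 5 and 8 of 19 without one (−0.34) and 28.2% and 25.3% of all genes. Against alpha-like cells the counts were 5 and 0 of 11 with an element and 10 and 4 of 19 without (28.5% and 30.1% of all genes). Against Fev+-like cells they were 7 and 0 of 10, and 9 and 3 of 17 (28.7% and 29.0%), and against fibroblast-like cells 7 and 0 of 11, and 10 and 3 of 19 (20.6% and 23.6%). Over stages in acinar-like cells 7 of 11 with an element rose (median 1.27) and 11 of 20 without one (1.67), where 10.8% of all genes rose. The difference from the stage change of alpha-like cells was called for 8 of 11 and 9 of 19 (12.7%). These counts include *Derl3* and *Syvn1* (with an element) and *Edem1* and *Eif2ak3* (without one), which did not pass the filter on low counts in alpha-like cells alone. No difference between members with and without an element was tested.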

How the data were processed

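The authors deposited UMI counts per gene and cell, made with Cell Ranger 1.1 (v1) or 2.1 (v2 and Fev-Cre) on mm10, with no further normalization. Barcodes with 200 or more genes were kept, and 2121 suspected doublets (3.66%) were removed. Cells were clustered with scanpy 1.11.5 (2000 variable genes, 20 components, Leiden resolution 1) and named from markers. The naming thresholds were set after the clusters were seen. Counts were summed per class and library (20 or more cells) and tested with edgeR 4.0.16 (R 4.3.3) by its quasi-likelihood test with TMM, a filter on low counts and Benjamini-Hochberg adjustment over all genes tested, with DESeq2 1.42.0 as an alternative. The library was a block in class comparisons, since both classes come from 1 suspension (correlation of deviations within a library 0.138 to 0.628), and the kit in stage comparisons. The p-values measure spread between single pooled libraries. The stage fit of acinar-like cells had 3 residual degrees of freedom. Each kit had 1 pool at E12.5 and 1 at E17.5, so spread between pools of one kit and stage was seen at v1 E14.5 only. The members and lists were chosen with earlier results of these data known. All 36 members are named. The lowest, median and highest level over libraries is given for those with the 3 largest called folds in each direction of a class comparison. For sensors and factors it is given in some or all classes. Limits for counts of 0 (3 counts) cover counting error only. On simulated data for the beta-like comparison (9261 genes), 97.8% of 89 genes changed by 2 on the log2 scale and 49.4% of 89 changed by 1 were recovered. These were 87 and 44 genes, and 13 calls were false.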

Additional observations from a re-analysis of the deposited data

Results flagged for a closer look

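The change of 21 members from E12.5 to E17.5 differed between acinar-like and alpha-like cells by an interaction term in edgeR, each with the greater rise in acinar-like cells. Over the 28 members that also passed the filter on low counts in alpha-like cells, 17 were called, where 12.6% of 6013 genes were. Among genes of ER-associated degradation the difference (log2) was 6.17 for *Derl3*, 4.07 for *Sel1l*, 3.79 for *Edem1*, 1.96 for *Syvn1*, 1.67 for *Herpud1* and 1.12 for *Derl1*. Among chaperones it was 2.98 for *Hyou1*, 2.91 for *Sdf2l1*, 2.12 for *Creld2*, 2.1 for *Manf*, 1.41 for *Dnajc3*, 1.27 for *Dnajb11* and 1.08 for *Calr*. Isomerases gave 2.97 for *P4hb*, 2.43 for *Ppib* and 1.46 for *Pdia6*, and genes of ER entry 2.12 for *Sec61b*, 1.93 for *Sec61a1* and 1.55 for *Ssr4*. Of the sensors and factors *Eif2ak3* (2.4) and *Creb3l2* (1.8) differed. The values of *Derl3*, *Edem1*, *Syvn1* and *Eif2ak3* are uncertain in size, since these genes did not pass the filter on low counts in alpha-like cells alone, where *Derl3* had 2 and 1 UMIs and *Edem1* 1 and 1 at E12.5 and E17.5 in v1. Against fibroblast-like cells the interaction term was called for *Sdf2l1* (2.46). How far the interaction calls hold without TMM, without 1 library or with other clusters is not given here. The rise in acinar-like cells itself depended on TMM and on v2 E17.5, as stated above. The alpha-like class of v1 E17.5 was not found at Leiden resolution 2.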

How the results depend on the processing

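Counts of members called moved by over 1.5 times under these settings. Counts over all genes moved too, such as from 2495 to 2093 lower than in beta-like cells with no replicate block. Without cycling cells those higher than in fibroblast-like cells went from 2260 of 10973 to 555 of 6220. Against beta-like cells, 6 higher became 3 with v2-kit libraries only, and 16 lower became 9 with no replicate block. Over all genes 2776 of 9857 higher became 2652 of 13031 with v2-kit libraries only. Against alpha-like cells, 17 higher became 10 without TMM, 9 with cycling cells left out and 11 in v1 libraries only. Over all genes 2800 of 9829 higher became 1580 of 9829, 964 of 6698 and 982 of 4780. The 4 members lower became 2 with no replicate block, 2 in Swiss Webster libraries only, 0 without cycling cells, 1 with cells thinned to 1000 UMIs and 1 in v1 only. Over all genes 2961 lower became 2501 of 9829, 1922 of 7004, 1115 of 6698, 962 of 3517 and 1038 of 4780. Against Fev+-like cells, 19 higher became 10 without TMM and 11 with v2-kit libraries, and 4 lower became 0 without cycling cells, 1 when thinned and 2 in v1. Over all genes 2119 of 7373 higher became 999 of 7373 and 2190 of 12493. The 2138 genes lower became 902 of 5856, 579 of 2008 and 1139 of 4642. Against fibroblast-like cells, 19 higher became 12 without TMM, 10 without cycling cells, 12 when thinned and 9 with v2-kit libraries. Over all genes 2260 of 10973 higher became 1326 of 10973, 555 of 6220, 912 of 6942 and 1128 of 13408. The 3 members lower became 7 without TMM and 0 without cycling cells or with v2-kit libraries. Over all genes 2586 lower became 3927 of 10973, 843 of 6220 and 1542 of 13408. Leaving out 1 library gave 5 to 7 and 14 to 18 (beta-like, higher and lower), 13 to 17 and 2 to 4 (alpha-like, 2 without v2 E12.5 or the Fev-Cre library), 17 to 21 and 4 (Fev+-like), 14 to 20 and 2 to 4 (fibroblast-like), and 6 to 28 higher over stages in acinar-like cells, where 17 were called with no replicate block. *Pdia4* reversed against alpha-like cells without TMM (−0.06), *Dnajb9* against Fev+-like cells without cycling cells (0.08), and *Atf6* over stages without v2 E17.5 (−9.15, with a highest value of 3.53 without v2 E12.5), where the remaining E17.5 library held 0 of its UMIs. The causes of the other shifts were not tested. Leaving out cycling cells drops the acinar-like sums of v1 E12.5, v1 E14.5 batch 2 and the Fev-Cre library. The v1-only, v2-kit-only and haemoglobin settings were chosen after seeing the data. Acinar-like v1 E17.5, with 118254 UMIs, limits every low count at that stage.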
